A study of Homo sapiens with 12 samples.

Results

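The major cluster of replication-dependent histone genes on the short arm of chromosome 6 was examined for accessible chromatin in G401 cells. Members were the peaks overlapping an interval of 1.86 Mb, chr6:26010000-27870000 in GRCh37, which was taken as the extent of the cluster. Its bounds used no measured value, but the members were chosen with earlier results of these data known. Peaks of 12 libraries were merged wherever they shared at least 1 bp, which gave 302 regions out of 187088 in the whole genome. A further 9859 regions lay elsewhere on chromosome 6.

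The data were ATAC-seq peak lists, 1 per library; ATAC-seq marks open DNA by the places where a transposase can cut and tag it. G401 is an established rhabdoid tumour line with the genotype SMARCB1(-/-), so that all groups lacked the endogenous gene for this SWI/SNF chromatin remodelling subunit. All groups also received dox for 24 h, which induced either GFP or SMARCB1, and were given DMSO or dBRD9-A, a degrader of the SWI/SNF subunit BRD9, over the same period. The 4 groups were GFP with DMSO, SMARCB1 with DMSO, GFP with dBRD9-A and SMARCB1 with dBRD9-A, each with 3 libraries. The labels do not say whether the libraries came from separate cultures or clones, so the p-values measure the spread between these libraries, which may be technical. The identity of the line and the level of induced SMARCB1 were not checked here, because the lists hold positions and no expression. The questions addressed are which regions of the cluster were open in every library, and whether regions differed with SMARCB1 induction or with dBRD9-A.

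Replication-dependent histone genes encode the linker histone H1 and the core histones H2A, H2B, H3 and H4, and are transcribed mainly in S phase to package newly made DNA. Their messages end in a stem-loop in place of a poly(A) tail, and NPAT gathers at the genes in nuclear histone locus bodies. Many H2A and H2B genes lie head to head and share the DNA between their starts. In RefSeq (GRCh38.p14), chromosome 6 carried 55 such genes by symbol: 6 of H1, 12 of H2A, 15 of H2B, 10 of H3 and 12 of H4. They formed 5 runs, each unbroken by another protein-coding gene. These held 2 genes from H2AC1 to H2BC1, 9 from H1-1 to H1-2, 23 from H4C3 to H4C8, 5 from H2BC11 to H2AC12 and 16 from H2BC13 to H2BC17. H2AC1 and H2BC1, known as testis histone genes, were set off from the others by SLC17A4, SLC17A3, SLC17A2 and TRIM38. HFE, the haemochromatosis gene, separated H1-2 from H4C3. The 9 genes between H4C8 and H2BC11 included 6 butyrophilin (BTN) genes as well as HMGN4, ABT1 and ZNF322. The whole span from the first to the last histone gene held 98 tRNA genes, which RNA polymerase III transcribes and which are a further class of short, active genes. The annotation is of another build than the peaks, so no region was assigned to a histone, tRNA or other gene. Which of these genes lie inside the GRCh37 interval was not checked either, and this applies above all to H2AC1, H2BC1 and the 4 genes after them, which stand at the outer end.

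Promoter sequences are given for 7 histone genes of chromosome 6, to display the elements that the families share and those that set them apart. They are the lowest-numbered gene of each family with an entry, followed by H2BC4 and H2AC6, the first head-to-head pair after H2AC1 and H2BC1, which may lie outside the interval. Each line holds the 150 bases ending at the annotated start, 5′ to 3′ along the gene's own strand, from RefSeq (GRCh38.p14). Capitals mark the TATA box letters TATAAA, the letters of the CCAAT box and the octamer ATTTGCAT on either strand. ATTGG in capitals is therefore the CCAAT box of the opposite strand, just as ATGCAAAT is the octamer of the opposite strand. No other motif was searched, and no match overlaps another in these windows.
H1-1: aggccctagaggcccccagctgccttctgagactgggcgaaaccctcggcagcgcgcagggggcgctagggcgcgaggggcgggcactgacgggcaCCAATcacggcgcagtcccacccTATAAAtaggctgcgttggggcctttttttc
H2AC1: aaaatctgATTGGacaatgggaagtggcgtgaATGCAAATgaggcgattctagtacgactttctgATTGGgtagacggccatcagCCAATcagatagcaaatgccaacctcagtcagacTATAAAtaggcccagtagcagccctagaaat
H2BC1: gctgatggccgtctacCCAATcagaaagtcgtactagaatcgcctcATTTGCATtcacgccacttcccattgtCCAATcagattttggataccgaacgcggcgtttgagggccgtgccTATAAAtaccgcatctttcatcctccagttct
H3C1: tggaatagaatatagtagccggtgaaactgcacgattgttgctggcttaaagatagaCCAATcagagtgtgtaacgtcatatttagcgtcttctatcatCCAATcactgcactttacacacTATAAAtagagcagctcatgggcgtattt
H4C2: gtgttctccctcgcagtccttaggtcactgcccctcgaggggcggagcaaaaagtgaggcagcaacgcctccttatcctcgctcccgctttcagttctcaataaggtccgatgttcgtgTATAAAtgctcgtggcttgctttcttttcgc
H2BC4: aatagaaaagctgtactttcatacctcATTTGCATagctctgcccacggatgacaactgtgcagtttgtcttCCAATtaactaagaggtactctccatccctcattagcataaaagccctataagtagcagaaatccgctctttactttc
H2AC6: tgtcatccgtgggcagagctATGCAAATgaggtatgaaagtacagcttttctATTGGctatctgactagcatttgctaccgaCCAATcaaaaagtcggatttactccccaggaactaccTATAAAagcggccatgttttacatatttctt
In these windows TATAAA began between 29 and 32 bases before the start in 6 of the 7 genes, and H2BC4 had no such match. H2AC1 and H2BC1 are read away from each other and their windows share DNA, so the octamer of one is the octamer of the other on the opposite strand; H2BC4 and H2AC6 likewise share theirs. The H4C2 window held neither CCAAT nor the octamer.

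Over the 250 bases before the start, 50 of the 55 genes had an entry. TATAAA was found in 33 of the 50 (66%) against 11.1% of the 27305 promoters in the table, and CCAAT in 43 (86%) against 33%. The octamer, the letters that POU factors such as OCT1 are known to read, was in 22 (44%) against 1.66%. By family, the octamer stood in 12 of 15 H2B and 9 of 11 H2A promoters, in 1 of 8 H3 promoters, and in 0 of 6 H1 and 0 of 10 H4 promoters. CCAAT stood in every H1, H2A, H2B and H3 promoter searched (6, 11, 15 and 8) and in 3 of 10 for H4. A match of letters is a description and not a binding site. Of the 10 pairs of neighbouring H2A and H2B genes on opposite strands, 9 were read away from each other.

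The interval was dense in peaks, and above all in regions open in every library. It held 162 regions per Mb against 58.3 per Mb over the rest of chromosome 6, and 54.3 per Mb found in all 12 lists against 4.21. The rest was counted from the first to the last peak of the chromosome, 169 Mb without the interval, gene-poor stretches included. No other stretch rich in genes was compared, so the density is not shown to be particular to this cluster. These 101 shared regions made up 33.4% of the 302, whereas 7.22% of the regions on the rest of chromosome 6 and 9.68% of all regions were found in 12 lists. A further 141 regions (46.7%) were found in 2 to 11 lists. The remaining 60 (19.9%) were found in 1 list, 19 of them in a GFP and 41 in a SMARCB1 library, against 42.7% in 1 list on the rest of chromosome 6. The merged shared regions spanned a median of 348 bp (108 to 1113 bp). Regions in 2 to 11 lists spanned 187 bp and those in 1 list 86.0 bp. A merged region runs from the outermost start to the outermost end of its peaks, so its width tends to grow with the number of lists. Single peaks in the interval had median widths of 146 to 185 bp by library. On the rest of chromosome 6 the median width of regions in 12 lists was 293 bp.

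Open regions came in blocks along the interval. In 10 consecutive windows of 186 kb the numbers of regions were 43, 48, 36, 7, 5, 25, 40, 16, 42 and 40, of which 19, 16, 11, 2, 2, 8, 12, 8, 13 and 10 were in all 12 lists. The windows with 7 and 5 regions lie next to each other, and across their border lay the longest stretch with no peak in any list, 254 kb from 26583083 to 26837252, and the next longest was 83.8 kb. Absence from the lists is not evidence of closed chromatin. Neighbouring shared regions were a median of 10037 bp apart, and 16 of their 100 gaps were under 1000 bp. The ratio of the mean number of regions per SMARCB1 library to that per GFP library lay between 0.880 and 1.31 in the windows. At the borders, the nearest region before the interval ended at 26003571, and the nearest after it began at 27870214 and was in all 12 lists.

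**Figure D1:**
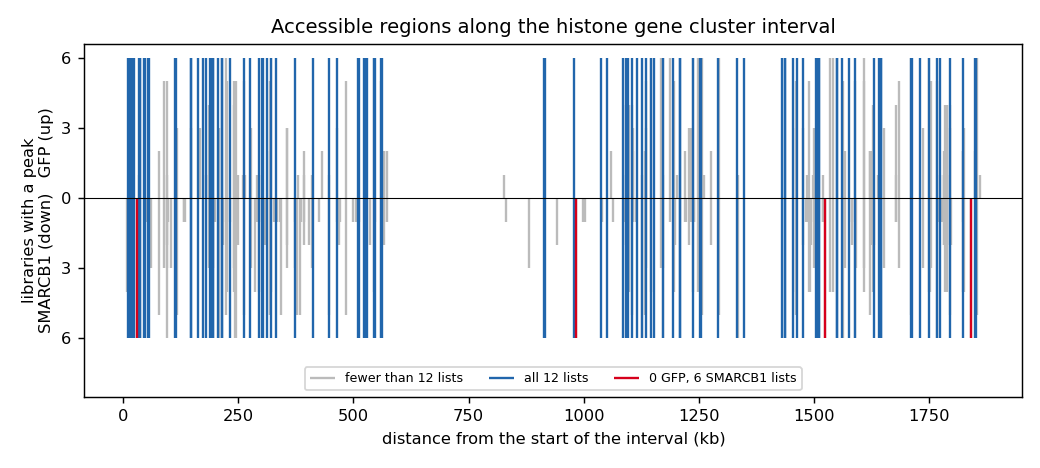
Each vertical line is 1 of the 302 regions at its distance in kb from the start of the interval, drawn up to the number of GFP libraries and down to the number of SMARCB1 libraries with a peak there. The 101 regions in all 12 lists stand in blocks on both sides of a stretch of 254 kb with no region, and the 4 regions with 0 GFP and 6 SMARCB1 libraries are spread over the interval.

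The number of peaks in the interval was similar with either induction, while the lists as a whole were more than doubled with SMARCB1. GFP libraries with DMSO had 181, 161 and 173 peaks in the interval, and those with dBRD9-A had 159, 158 and 214. SMARCB1 libraries with DMSO had 171, 195 and 196, and those with dBRD9-A had 206, 164 and 209. The ranges overlapped in both treatments. The means were 174 ± 21.4 (SD, n = 6) for GFP and 190 ± 18.5 (SD, n = 6) for SMARCB1, and the SMARCB1 mean was 1.09 times the GFP mean under DMSO and 1.09 times under dBRD9-A. For whole lists it was 2.21 and 2.15 times. The difference of 15.8 peaks had p = 0.205 (exact permutation of libraries within treatments, two-sided, 400 arrangements; adjusted p = 1.0 over the 12 tests of this family). The bases covered by peaks came to 34.3 ± 6.30 kb with GFP and 37.6 ± 6.22 kb with SMARCB1 (SD, n = 6), and this difference of 3.23 kb had an exact permutation p of 0.410. When each list was restricted to its 33428 strongest peaks, the length of the shortest list, SMARCB1 libraries instead had 62.3 fewer peaks in the interval than GFP libraries (exact permutation p = 0.005). The deposited lists held 33428 to 50089 peaks with GFP and 71169 to 96572 with SMARCB1. This restriction therefore took more peaks from every SMARCB1 list than from any GFP list, and the fewer peaks are not a count of peaks missing from the deposited lists.

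As a share of its own list, the interval took up less in the SMARCB1 libraries. The shares were 0.414%, 0.456% and 0.486% in GFP with DMSO and 0.476%, 0.448% and 0.427% in GFP with dBRD9-A. In SMARCB1 with DMSO they were 0.223%, 0.216% and 0.228%, and in SMARCB1 with dBRD9-A 0.233%, 0.230% and 0.216%. Every SMARCB1 library lay below every GFP library. The means were 0.451 ± 0.0276% and 0.225 ± 0.00726% (SD, n = 6), and the difference of -0.227 percentage points had an exact permutation p of 0.005, the smallest that 400 arrangements can give. After adjustment over the 12 tests p was 0.0600, which is over the threshold of 0.05 and is the lowest that a single smallest p can reach in this family. Among peaks of chromosome 6 alone the interval held 9.52 ± 0.610% with GFP (8.71% to 10.3%) and 4.20 ± 0.159% with SMARCB1 (4.0% to 4.39%; SD, n = 6), with an exact permutation p of 0.005 outside that family.

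Depth differed between the inductions as well. It was read from the smallest background of any peak in a list, in fragments expected at a position by chance, a value that grows with sequencing. Over all libraries it ran from 0.0383 to 0.111, with means of 0.0517 ± 0.0171 for GFP and 0.0827 ± 0.0217 for SMARCB1 (SD, n = 6; exact permutation p = 0.0300), and the lists held between 33428 and 96572 peaks. Within the inductions, GFP with dBRD9-A replicate 3 had the most peaks in the interval of the GFP libraries (214) and the highest of their backgrounds (0.0784). SMARCB1 with dBRD9-A replicate 2 had the fewest of the SMARCB1 libraries (164) and the lowest of theirs (0.0487). With peaks scaled to an equal background, the difference between SMARCB1 and GFP was -2.17 peaks in place of 15.8. The difference in the share of the list was -0.209 percentage points at equal background and -0.186 in lists of equal length, against -0.227 with the lists as deposited (exact permutation p = 0.005 in each). At equal length every list has 33428 peaks, so that share restates the difference of -62.3 peaks and is not a separate result.

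**Figure D2:**
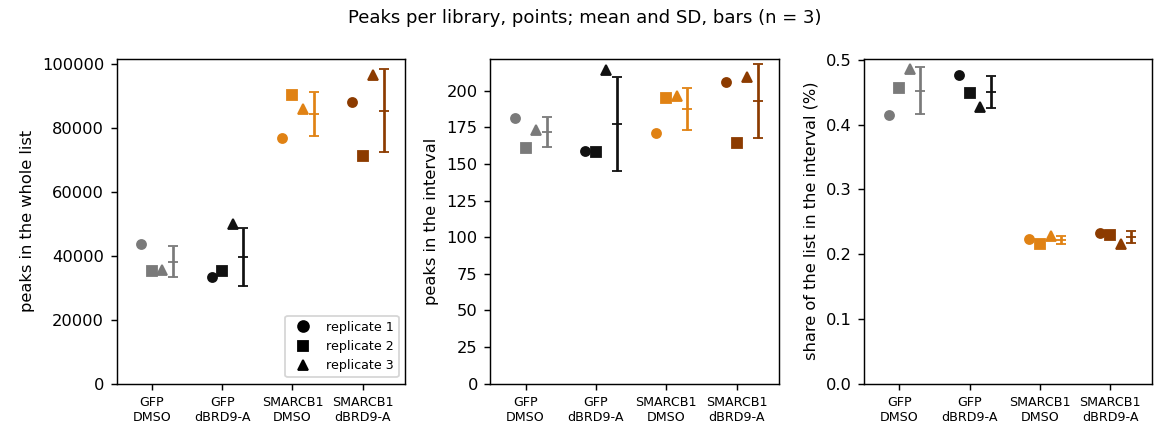
Peaks in the whole list, peaks in the interval and the share of the list in the interval are plotted for each library, with the mean and SD of 3 libraries beside each group. Numbers in the interval overlap between GFP and SMARCB1 libraries, whereas shares are at least 0.414% in GFP and at most 0.233% in SMARCB1 libraries.

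With dBRD9-A, neither the number of peaks nor the share differed by more than the spread between libraries. The difference from DMSO was 5.50 peaks (exact permutation p = 0.70) and 0.00119 percentage points of the list (exact permutation p = 0.910), with adjusted p = 1.0 for the first. The difference between the dBRD9-A effects in the 2 inductions was 0.333 peaks (exact permutation p = 1.0). The median width of peaks in the interval was 163 ± 11.8 bp with GFP and 164 ± 16.8 bp with SMARCB1 (SD, n = 6; exact permutation p = 0.915).

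In the lists as deposited, few regions of the interval appeared or vanished with SMARCB1. A region with a peak in 3 of 3 SMARCB1 libraries and in 0 of 3 GFP libraries of the same treatment is termed gained, and in the reverse case lost; this count carries no test. In DMSO, 9 of 302 regions (2.98%) were gained with SMARCB1, against 11.3% of all 187088 regions, and 1 (0.331%) was lost, against 0.323%. In dBRD9-A, 8 (2.65%) were gained, against 10.6%, and 0 were lost, against 0.302%. Lists of equal length take more peaks out of the SMARCB1 lists than out of the GFP lists. A region counted as lost there can therefore still hold a peak in deposited SMARCB1 lists, and the lost share of all regions was higher too. In these shortened lists and in DMSO, 2 of 219 regions (0.913%) were gained, against 7.26% of all 76995, and 17 (7.76%) were lost, against 4.30%. In dBRD9-A 2 (0.913%) were gained, against 7.20%, and 18 (8.22%) were lost, against 3.97%. Between 2 and 10 of the deposited lists held a peak in 128 of the 302, and the presence of each was tested by exact permutation of libraries within treatments, with Benjamini-Hochberg adjustment over 88398 regions of the genome. With SMARCB1, 4 of the 128 (3.12%) were called gained, against 15.4% of all regions tested. Lost regions numbered 0 of the 128, against 0.131%. At an unadjusted p under 0.05, 12 of the 128 members were gained and 1 of the 128 was lost, against 25.9% and 0.482% of all regions tested. In lists of equal length, 2 of the 119 members tested (1.68%) were called gained, against 9.0% of all, and 5 (4.20%) were called lost, against 2.45%. Regions held by 6 GFP but not all SMARCB1 libraries numbered 18 (5.96%; 1.57% of all regions), and those held by 6 SMARCB1 but not all GFP libraries numbered 17 (5.63%; 11.4% of all). Regions found in SMARCB1 libraries alone made up 71 of the 302 (23.5%), against 62.3% of all regions, and those found in GFP libraries alone made up 27 (8.94%), against 11.5%. In at least 2 lists, SMARCB1 libraries alone held 30 (9.93%), against 30.9%, and GFP libraries alone held 8 (2.65%), against 1.93%.

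Those called gained were found in 6 of 6 SMARCB1 and 0 of 6 GFP libraries (exact permutation p = 0.005, adjusted p = 0.0321 for each). Their strength is given as the authors' fold, the summit pileup over the background with the same constant added to both. Where the background is far below that constant, the fold follows the pileup. Folds of different libraries are therefore not corrected for depth, which differed between the inductions. The strongest, at chr6:27850473-27850796 near the far end of the interval, had folds of 9.05, 12.4 and 9.78 in SMARCB1 with DMSO and 10.2, 12.7 and 11.5 with dBRD9-A. The second, at chr6:26994210-26994444, had folds of 9.30, 16.0 and 7.76, and 11.5, 8.12 and 11. Their mean percentiles within the lists, 79.2 and 76.3, placed them among the upper peaks. The other 2 were weak: chr6:26039576-26039786 had folds of 5.76, 4.42 and 6.04 with DMSO and 5.98, 4.82 and 6.25 with dBRD9-A, at a mean percentile of 43.0. Folds at chr6:27533686-27533860 were 5.42, 4.65 and 5.03 with DMSO and 5.18, 4.58 and 7.53 with dBRD9-A, at a mean percentile of 39.6 and from summits of 4 to 9 fragments. In lists of equal length the first 2 remained in 6 SMARCB1 and 0 GFP libraries and the weak 2 were in 0 more SMARCB1 than GFP libraries. When presence required a peak to cover 50% of the region, 0 members and 0% of all regions were called. The smallest exact permutation p of 0.005 then had an adjusted p of 0.0577, so no region could pass. With libraries permuted only within replicate numbers, 0 members and 0% of all regions were called as well; the smallest exact permutation p is then 0.0312 and the lowest adjusted p was 0.201, so that no region of the genome passed.

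No region was lost in both treatments. The nearest to it, named after its values were seen, was chr6:27198277-27198477, with a peak in 6 of 6 GFP libraries and in 1 SMARCB1 library. Its folds were 7.39, 6.13 and 6.19 in GFP with DMSO, 4.23, 3.53 and 11.6 in GFP with dBRD9-A, and 5.72 in SMARCB1 with dBRD9-A replicate 3. The exact permutation p of 0.0200 did not pass after adjustment (0.0757).

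By the same rule, few regions were gained or lost with dBRD9-A against DMSO. In GFP libraries 0 of 302 were gained and 0 lost, against 0.135% and 0.121% of all regions. In SMARCB1 libraries 2 (0.662%) were gained, against 0.266%, and 1 (0.331%) was lost, against 0.238%. The lost one, chr6:26420954-26421052, had folds of 5.53, 7.63 and 6.52 in SMARCB1 with DMSO and 4.90 in GFP with DMSO replicate 2. Of the gained ones, chr6:26384408-26384507 had folds of 5.13, 5.25 and 5.2 in SMARCB1 with dBRD9-A and no other peak. The other, chr6:27745591-27745771, had folds of 5.48, 2.86 and 4.50 there, but also 4.66 and 9.16 in GFP with DMSO replicates 1 and 3 and 9.42 in GFP with dBRD9-A replicate 3. The mean percentiles of these 3 regions within the lists were 46.7, 38.9 and 37.4. In the presence test of dBRD9-A against DMSO 0 regions of the interval were called gained and 0 lost, against 0% and 0% of all 88398. That test found 0 members at an unadjusted p under 0.05 in either direction, and a lowest adjusted p of 1.0 in exact permutation over all regions.

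The 101 regions found in every list had lower folds within their lists than the regions shared by 12 lists over the whole genome. Their median folds over the 12 libraries ran from 5.54 to 22.3, with a median of 9.98 and quartiles of 8.72 and 12.2. The median percentile of the fold within a list was 63.7 to 71.2 for these regions in GFP libraries and 75.5 to 78.5 in SMARCB1 libraries. In each of the 12 libraries this was lower than the median of all regions shared by 12 lists, by 5.60 to 10.1 percentile points. These percentiles are taken within lists of different length, so their difference between the inductions cannot be read as a change.

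The 6 strongest shared regions are described by the fold in each library. At chr6:26189177-26189524 the fold was 29.8, 17.6 and 15.1 in GFP with DMSO, 26.9, 22.5 and 22.1 in SMARCB1 with DMSO, 18.4, 20.5 and 24.1 in GFP with dBRD9-A and 29.8, 21.7 and 22.6 in SMARCB1 with dBRD9-A. Groups overlapped throughout, and the mean percentile was 96.6. At chr6:26341848-26342133 the fold ran from 16.6 to 28.4 with a median of 19.8 over the 12 libraries, and at chr6:27560373-27560718 from 11.9 to 23.1 with a median of 19.2. The next, chr6:27440631-27441270, was 640 bp wide with folds of 12.7 to 22.6, and chr6:26923895-26924286 had folds of 15.4 to 22.4. The sixth, chr6:27356425-27356782, had folds of 13.1 to 24.5. None of the 6 was called in either comparison of ranks described next. The widest merged region, chr6:26322387-26323499, spanned 1113 bp with a median fold of 12.1, and the next, chr6:26157581-26158515 and chr6:26216711-26217629, spanned 935 and 919 bp with median folds of 8.59 and 8.13. The strongest region spanned 348 bp, the median width of the shared regions.

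To compare strength between groups, the fold was ranked within the 18114 regions shared by all 12 lists, a set of the same size in each library. The ranks were turned into normal scores and tested with limma, with Benjamini-Hochberg adjustment over all 18114. With SMARCB1, 3 of the 101 (2.97%) ranked higher, against 5.74% of all shared regions, and 1 (0.990%) ranked lower, against 3.22%. The median difference of normal scores was -0.154 for the 101 (quartiles -0.329 and 0.0970) and -0.0471 for all 18114 (quartiles -0.310 and 0.242). The difference was negative for 67 of the 101 (66.3%) and for 54.4% of all. At an unadjusted p under 0.05 there were 15 of the 101 (14.9%) and 22.1% of all. An exact permutation test of the same ranks, stratified by treatment and adjusted over the same regions, called 0 of the 101 as higher and 0 as lower, against 0% and 0% of all 18114. The smallest p that this test can give, 0.005, had an adjusted p of 0.0746. No region could therefore pass, however well its groups were separated, and the 0 calls do not bear on the limma calls. At an unadjusted exact permutation p under 0.05 there were 16 of the 101 (15.8%), against 19.7% of all.

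**Figure D3:**
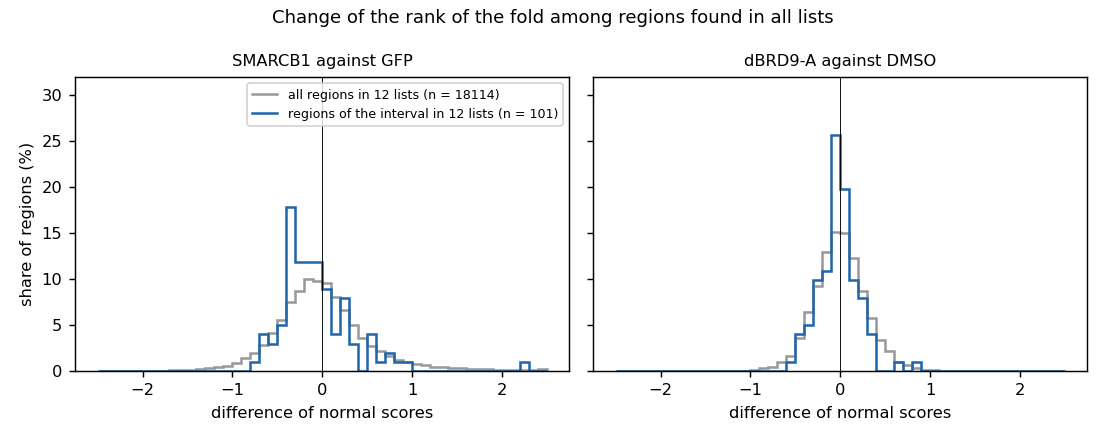
The share of regions is plotted against the difference of normal scores of the fold for the 101 regions of the interval and for all 18114 regions in 12 lists, for SMARCB1 against GFP on the left and dBRD9-A against DMSO on the right. On the left the 101 are centred at a median of -0.154, with 1 region far to the right at 2.23; on the right their median is -0.0195.

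Of the 101 shared regions of the interval, 1 moved far beyond the rest. Shifts of this size also occurred elsewhere: of all 18114 shared regions, 0.0773% had a difference from 2.2 to 2.3 and 0.248% were in the top class, from 2.4. At chr6:27156256-27156545, 290 bp wide, the fold was 7.87, 7.55 and 6.66 in GFP with DMSO and 3.76, 4.50 and 5.18 in GFP with dBRD9-A. It was 16.7, 14.9 and 14.3 in SMARCB1 with DMSO and 17.8, 15 and 17.6 in SMARCB1 with dBRD9-A. Every SMARCB1 library lay above every GFP library, and the mean percentile among shared regions was 7.95 with GFP and 71.7 with SMARCB1. The score difference was 2.23 ± 0.22 (SE; limma, adjusted p = 9.94e-07), and it lay between 2.16 and 2.29 with any 1 library left out. In GFP libraries its 3 dBRD9-A folds were all below its 3 DMSO folds, with a score difference of -1.12. This did not pass (limma, adjusted p = 0.439). Summits of this region ran from 3 to 25 fragments over the 12 libraries. In GFP with dBRD9-A its percentiles among shared regions were 1.29, 2.29 and 0.831, near the bottom of that set. Both score differences therefore rest partly on peaks of few fragments.

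The other 3 calls were smaller. At chr6:27585525-27585950 the mean percentile was 24.6 with GFP and 57.7 with SMARCB1, a score difference of 0.96 ± 0.25 (SE; limma, adjusted p = 0.0179). At chr6:27136450-27136724 it was 21.5 and 52.5, a difference of 0.88 ± 0.24 (SE; limma, adjusted p = 0.0263). At chr6:26987525-26988259, 735 bp wide, it was 77.4 with GFP and 52.1 with SMARCB1, a difference of -0.75 ± 0.22 (SE; limma, adjusted p = 0.0401). The folds of all 3 overlapped between GFP and SMARCB1 libraries. The first of the 3 was not called without GFP with DMSO replicate 2, SMARCB1 with DMSO replicate 2 or SMARCB1 with dBRD9-A replicate 1 (limma, adjusted p up to 0.0584). The second was not called without any 1 of 6 libraries (replicates 2 and 3 of GFP with DMSO, 3 of SMARCB1 with DMSO, 2 of GFP with dBRD9-A, 1 and 2 of SMARCB1 with dBRD9-A; limma, adjusted p up to 0.0841). The third stayed called only without replicate 1 of GFP with dBRD9-A or of SMARCB1 with dBRD9-A, and otherwise reached a limma adjusted p of up to 0.101.

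**Figure D4:**
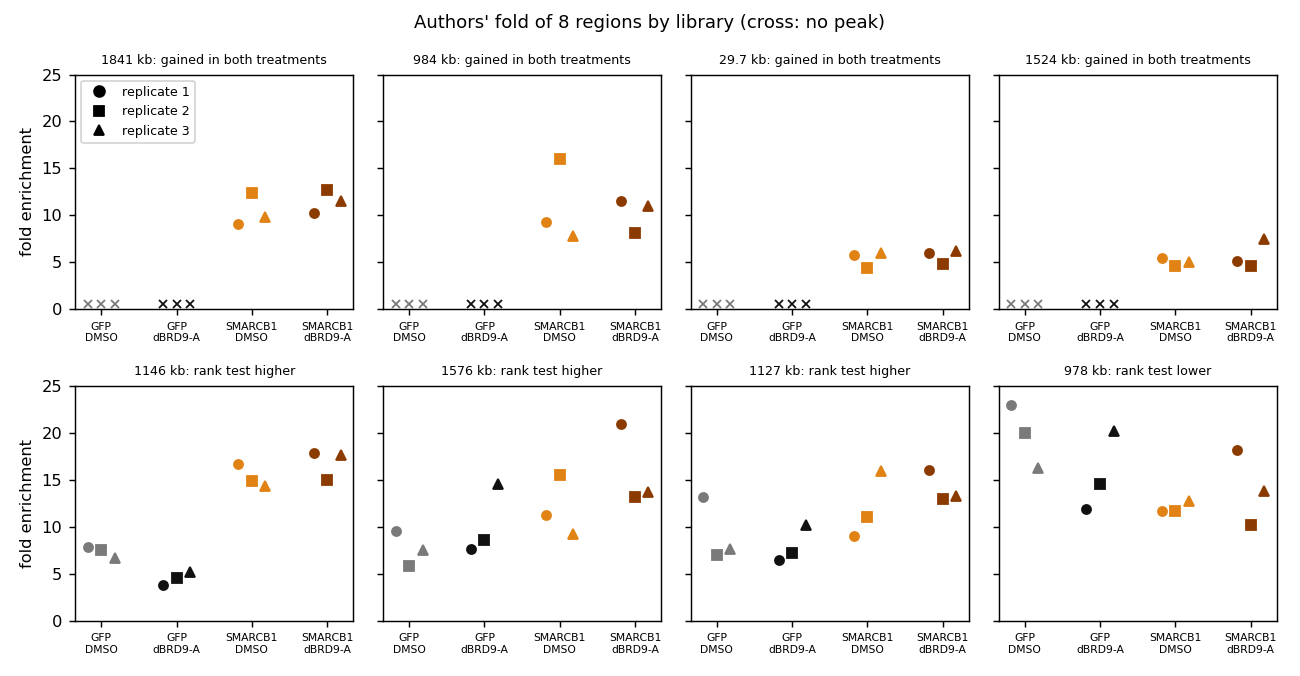
The authors' fold is plotted by library, in the 4 groups, for the 4 gained regions (top) and the 4 regions called by rank (bottom), each titled with its distance in kb from the start of the interval; crosses mark libraries with no peak. Of the 4 lower panels, the folds at 1146 kb are at most 7.87 in GFP and at least 14.3 in SMARCB1 libraries, and those of the other 3 regions overlap.

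With dBRD9-A, ranks within the interval moved little. Of the 101 shared regions 0 ranked higher and 0 lower, against 0% and 0% of all 18114 (limma, lowest adjusted p 0.822 in the interval), and 2 of the 101 (1.98%) had an unadjusted p under 0.05, against 5.24% of all. The median score difference was -0.0195 in the interval and -0.00378 over all shared regions. A test of whether the dBRD9-A difference itself depended on the induction called 0 of the 101 (limma, lowest adjusted p 0.999), and 0 of all 18114. At an unadjusted p under 0.05 there were 3 of the 101 (2.97%), against 4.21% of all.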

How the data were processed

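The labels place 12 ATAC-seq libraries in 4 groups of 3. Per the submitters' processing notes, the tools included BWA 0.7.12-r1039, SAMtools 1.2, bedtools 2.24.0 and MACS2 2.1.1.20160309, on hg19; their roles and settings are not given in the sources used here. Peaks were called per library, as each list has its own, and per the labels from nucleosome-free fragments. The deposited lists give a score, a fold and the −log10 of the p and q values, in the units of the authors' caller. The fold is the ratio of summit pileup to background after the same constant is added to both. The lowest −log10 q was 1.30. The score was not used. Pileup and background were recovered from the fold and −log10 p, and 100% of pileups were whole within 0.001. No read totals were used.

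Presence, gain, loss and ranks were computed as described in the report (Python 3.11.15, numpy 2.4.6, scipy 1.17.1, pandas 2.3.3, R 4.3.3, limma 3.58.1) at an adjusted p threshold of 0.05. The family of 12 tests comprised peak number, share, bases covered and median width, each with 3 contrasts. Comparisons of 3 with 3 libraries cannot give an exact p below 0.100. The tests were tested on simulated data. The regions named were the 6 of highest mean fold percentile in 12 lists, up to 5 gained and 5 lost in both treatments, those changed with dBRD9-A, those called by rank, and the 3 widest. The members and lists were chosen with earlier results of these data known. Alternatives were lists of 33428 peaks, −log10 q of 5 or more, scaling to an equal background of 0.0383 with a −log10 p threshold of 4.02, the share of bases covered, presence by 50% cover, summit windows of 100 bp to each side, ranks of −log10 p or of pileup, an exact permutation test of ranks, a replicate block, and each library left out. Gene names, order and promoters came from RefSeq of GRCh38.p14; peak sequences were not used here.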

Additional observations from a re-analysis of the deposited data

How the results depend on the processing

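Of 108 values of 24 results under settings that kept all libraries, 70 kept their direction and side of the threshold or moved within the limits set, 1 lost its call, 9 changed sign and 28 moved. For peaks in the interval, SMARCB1 minus GFP was -62.3 in lists of equal length and -2.17 at equal background. dBRD9-A minus DMSO was -1.0 at a −log10 q of at least 5, -5.67 at equal length and -1.50 at equal background, and its dependence on induction was -3.33 and -3.67. The dBRD9-A difference in share was -0.00995 at the stricter q and -0.0170 at equal length.

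Shares over all regions are given above for gained and lost regions with SMARCB1 at equal length, and for the gained calls by 50% cover. For the other counts of gained, lost or changed regions here no such share is given, so they do not show whether members differ from all regions. Gained regions in DMSO numbered 5 at the stricter q and 2 at equal length, and lost ones 2 at the stricter q, 17 at equal length, 2 at equal background and 2 with summit windows. In dBRD9-A, gained regions numbered 4, 2 and 5 at the stricter q, equal length and equal background, and lost ones 18 at equal length and 1 at equal background. The presence test called 2 gained and 5 lost at equal length, and 0 gained by 50% cover (lowest adjusted p 0.0577 in exact permutation). Regions changed with dBRD9-A in GFP libraries numbered 1 at the stricter q and 2 by 50% cover, and in SMARCB1 libraries 1 at equal length and 1 at equal background. An exact permutation test of ranks, whose smallest possible p did not pass after adjustment, called 0 higher and 0 lower. By rank of the summit pileup the region at chr6:26987525-26988259 was not called (difference -0.547, limma adjusted p = 0.0537). The cause was not tested.

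With replicate numbers as a block, the share kept its direction (exact permutation p = 0.0312) and the presence test called 0 gained (lowest adjusted p 0.201). Limma on ranks then called 4 regions of the interval higher and 1 lower, and the share over all regions is not given for that fit. The library titles carry running numbers that are consecutive among the 4 libraries of each replicate number, but the labels do not say that these mark a shared culture, batch or day. Of 18 pairs of libraries with the same number 5 correlated over the limit of 0.1 (-0.05 to 0.19), and the main tests did not take the numbers as pairs. Yet among libraries of other groups, 11 of 12 libraries were most like one of their own number. Structure shared within a number was therefore not excluded, and the main tests ignore it.

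With 1 library left out, where a group of 2 is assumed to vary like the others in limma, the ranges were 11.1 to 25.1 peaks for SMARCB1 minus GFP, -3.75 to 12.8 for dBRD9-A minus DMSO and -9.17 to 18.8 for their interaction. Shares ranged from -0.236 to -0.218 (exact permutation p = 0.005 throughout) and from -0.00834 to 0.00968. In a group of 2, a gain or loss needs agreement of fewer libraries, so the counts of gained and lost regions could only stay or rise. The counts of regions that follow are given without the share over all regions and were not compared with it. In DMSO 9 to 17 regions were gained (17 without SMARCB1 with DMSO replicate 1) and 1 to 7 lost. In dBRD9-A 8 to 18 were gained (14 without GFP with dBRD9-A replicate 3, 18 without SMARCB1 with dBRD9-A replicate 2) and 0 to 2 lost. The presence test called 4 to 6 gained and 0 to 1 lost. Changed with dBRD9-A were 0 to 3 in GFP and 3 to 8 in SMARCB1 libraries. By rank 1 to 4 were higher (1 without GFP with DMSO replicate 2 or SMARCB1 with dBRD9-A replicate 1), 0 to 1 lower, and 0 changed with dBRD9-A. Of the 240 such values 170 held, 19 lost their call, 12 changed sign and 39 moved. Depth was known only through the background pileup, so weak regions are less certain than strong ones.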
